A study of Mus musculus with 15 samples.

Results

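The subject is 6 genes of mouse embryonic stem (ES) cells, Anxa2, Mme, Slco4c1, Slc15a1, Ckb and Gja1, out of 19937 genes measured. They lie outside the known feedback loop of the kinase ERK and were picked for their strong change with PD0325901 on these arrays, so their response to that inhibitor is a description here and carries no test. The cells were of a single 2i-adapted line, Ctnnb1-BioFLneo;BirA, in which beta-catenin (Ctnnb1) bears a knocked-in Biotin-3xFLAG tag and the biotin ligase BirA is present, in every group alike. Nothing states how many clones the line came from. Total RNA was profiled on 15 single-colour arrays, 3 in each of 5 groups. The 2iLIF group remained in long-term culture with CHIR99021 (3 µM), PD0325901 (1 µM) and LIF. From the other groups LIF, alone or with 1 or both inhibitors, was taken away for 24 h. That left CHIR99021 and PD0325901 in the 2i group, PD0325901 in PD03, CHIR99021 in CHIR, and neither inhibitor, with vehicle, in DMSO. The inhibitors and LIF were thus kept or taken away, and the words rose and fell below compare groups and do not follow a culture over time. Values are log2 RMA signals, so a difference of 1 is a 2-fold change, and they compare a gene between groups but not 1 gene with another.

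PD0325901 blocks MEK, the kinase that switches on ERK, and FGF signalling through ERK moves ES cells out of the naive state and towards differentiation. CHIR99021 blocks GSK3, which otherwise marks beta-catenin for destruction, and LIF acts through STAT3. The 6 genes belong to different protein families. Anxa2 encodes an annexin that binds membranes in a calcium-dependent way and forms a complex with S100a10. Mme encodes neprilysin, a zinc peptidase of the cell surface that cuts small peptides. Slco4c1 and Slc15a1 encode transporters, of organic anions and of short peptides. Ckb is the cytosolic creatine kinase first known from brain, which moves phosphate between ATP and creatine, and Gja1 encodes a connexin, the subunit of gap junction channels.

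Each member was represented by 1 probe set, and none had a further set shared with another gene. Dusp6, a phosphatase that ERK signalling induces, averaged 9.34 in PD03 and 11.06 in DMSO. Axin2, a target of beta-catenin signalling, averaged 9.31 in CHIR and 7.86 in DMSO, and Socs3, a target of STAT3, 9.0 in 2iLIF and 7.36 in 2i. All 8 core ES cell markers had group means over 7 in every group, and Pou5f1 averaged 12.52 in PD03 and 12.54 in DMSO. The summed linear signal of the markers nevertheless moved with the inhibitor, at 37555 to 37768 in PD03 against 33919 to 34730 in DMSO, with 5 markers called higher and 1 lower. Fibroblast and feeder markers (11 measured), which matter because Anxa2, Mme and Gja1 are also expressed in fibroblasts, summed to between 950 and 1117. Their sum was 985 to 1084 in PD03 and 959 to 1087 in DMSO, and 0 passed as higher and 1, Dcn, as lower. Means of Postn, Dcn, Lum and Prrx1 were under 6 in all groups, in the range of background. Markers of extra-embryonic endoderm (10 measured) summed to 952 to 1007 in PD03 and 906 to 966 in DMSO, and Gata4 passed as higher (0.22). Trophoblast markers (8 measured) summed to 1175 to 1192 in PD03 and 1204 to 1363 in DMSO, where Eomes (0.36) and Tfap2c (0.34) passed as higher and Krt18 (-0.57) as lower. Neural progenitor markers (7 measured) had sums of 1770 to 1865 in PD03 against 1364 to 1414 in DMSO. Nes, Pax6 and Tubb3 passed as higher in PD03 among them, and 0 passed as lower. In 2i against CHIR the neural sums were 1312 to 1451 and 1151 to 1185. The part of these markers in the results below was not tested. In RNA of a whole culture, a change in the share of cells that express a gene and a change in its RNA per cell cannot be told apart.

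The stretch before the transcription start is shown for Anxa2, Mme and Ckb, which were higher with PD0325901, and for Gja1, which was lower, so that genes of opposite response can be read side by side. Each line gives the 250 bases upstream of a RefSeq start in GRCm38.p6, 5′ to 3′ on the gene's own strand. All 6 genes matched the promoter table. Capitals mark matches on either strand to any of 7 short motifs: AP-1 (TGANTCA), a cyclic AMP response element (TGACGTC), ETS (CGGAAGT), TCF/LEF (CTTTGAT), STAT (TTCNNNGAA), GC box (GGGCGG) and TATA box (TATAAA).
Anxa2, chr9:69453433-69453682, plus strand: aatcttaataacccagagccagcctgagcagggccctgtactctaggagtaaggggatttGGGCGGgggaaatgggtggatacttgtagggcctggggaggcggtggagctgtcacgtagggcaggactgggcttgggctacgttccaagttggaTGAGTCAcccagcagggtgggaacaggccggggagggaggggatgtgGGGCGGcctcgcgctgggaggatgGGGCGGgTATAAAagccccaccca
Mme, first of 3 listed starts, chr3:63294961-63295210, plus strand: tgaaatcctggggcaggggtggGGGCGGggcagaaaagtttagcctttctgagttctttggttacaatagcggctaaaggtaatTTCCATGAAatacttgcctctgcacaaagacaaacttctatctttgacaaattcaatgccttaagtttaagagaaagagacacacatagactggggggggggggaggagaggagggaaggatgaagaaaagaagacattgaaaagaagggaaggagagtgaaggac
Ckb, chr12:111672339-111672588, minus strand: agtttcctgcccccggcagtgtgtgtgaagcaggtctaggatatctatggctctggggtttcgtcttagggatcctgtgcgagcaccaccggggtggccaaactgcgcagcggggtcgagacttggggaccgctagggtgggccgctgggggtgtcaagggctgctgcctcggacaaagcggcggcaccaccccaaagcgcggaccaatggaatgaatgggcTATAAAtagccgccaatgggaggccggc
Gja1, chr10:56377050-56377299, plus strand: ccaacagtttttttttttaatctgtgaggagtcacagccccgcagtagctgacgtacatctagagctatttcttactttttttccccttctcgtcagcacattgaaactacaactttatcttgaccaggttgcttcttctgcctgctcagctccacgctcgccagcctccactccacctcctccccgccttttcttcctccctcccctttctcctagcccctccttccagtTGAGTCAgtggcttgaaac

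An AP-1 match stands 95 to 89 bases before the start in Anxa2 and 19 to 13 bases before it in Gja1, and 6.75% of 32851 mouse promoter windows of this length hold one. The third listed start of Mme, not shown, has an AP-1 match 215 to 209 bases upstream. The genes with this match are thus Anxa2 and Mme, which were higher with PD0325901, and Gja1, which was lower. Mme holds a STAT match 166 to 158 bases before the first start (7.02% of windows). TATA box letters occur in Ckb, 28 to 23 bases upstream, and in Anxa2, 17 to 12 bases upstream (12.4% of windows). GC box letters, present in 32.7% of windows, occur 3 times in Anxa2, at each of the Mme starts, and once in Slco4c1, 10 to 5 bases before its start. Slc15a1 holds none of the 7 motifs in this window, which says nothing of letters elsewhere. ETS (4.92% of windows), TCF/LEF (3.21%) and the cyclic AMP response element (2.78%) have no match at any listed start of the 6 genes. These are matches of letters and not measured binding.

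Anxa2 was highest with PD0325901 alone. Its level was 9.82, 9.97 and 9.93 on the PD03 arrays, against 8.13, 7.55 and 7.91 on the DMSO arrays, a difference of 2.05 ± 0.12 (SE) or 4.13-fold. With CHIR99021 present on both sides it was 9.24, 9.39 and 9.23 in 2i, against 7.86, 8.34 and 8.10 in CHIR, a difference of 1.18 ± 0.12. The arrays did not overlap in either comparison. With LIF kept the level was 9.30, 9.40 and 9.39 in 2iLIF, which overlaps the 2i arrays. From high to low the order was PD03, 2iLIF, 2i, CHIR and DMSO, in which 2iLIF with 2i and CHIR with DMSO were neighbours with overlapping arrays.

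Mme had the same order of groups. It stood at 9.75, 9.63 and 9.63 in PD03, against 7.86, 7.36 and 7.63 in DMSO (2.05 ± 0.11, 4.15-fold). In 2i it was 8.99, 9.19 and 9.07, against 8.002, 8.27 and 8.08 in CHIR (0.96 ± 0.11). Again no arrays overlapped across either pair, and the 2iLIF arrays (8.96, 9.11 and 9.29) overlapped those of 2i. Over the 15 arrays Mme and Anxa2 had a Pearson r of 0.987, the highest of the 15 pairs among the 6 genes. The arrays share groups and normalization, so this describes a common profile.

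Slco4c1 was at 8.17, 7.99 and 8.13 in PD03, against 6.4, 5.83 and 6.07 in DMSO (1.99 ± 0.13, 3.99-fold), and at 7.81, 7.74 and 7.62 in 2i, against 6.46, 6.90 and 6.66 in CHIR (1.05 ± 0.13). Unlike Anxa2 and Mme it was highest in 2iLIF, at 8.22, 8.42 and 8.48, just above the PD03 arrays. All neighbouring groups were apart, though by little between 2iLIF and PD03 and between CHIR and DMSO, where the lowest CHIR array read 6.46 and the highest DMSO array 6.4. Its DMSO mean of 6.10 was near the range of background.

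Slc15a1 had the widest span of the 6 genes between full culture and full withdrawal, with means of 10.15 in 2iLIF and 7.16 in DMSO, a 7.92-fold difference. Its PD03 arrays read 9.02, 9.15 and 9.16, against 7.56, 6.85 and 7.07 on DMSO arrays (1.95 ± 0.13, 3.86-fold). In 2i it was 9.85, 9.89 and 9.76, against 8.84, 9.16 and 9.06 in CHIR (0.81 ± 0.13). The PD03 and CHIR arrays overlapped: either inhibitor alone left this gene at about the same level, well above DMSO, and both together left it higher.

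Ckb varied little between replicates, with SDs of 0.02 to 0.08 over the groups. It was at 11.39, 11.43 and 11.36 in PD03, against 10.06, 10.01 and 10.05 in DMSO (1.36 ± 0.04, 2.56-fold). It stood at 11.89, 11.92 and 12.04 in 2i, against 10.77, 10.71 and 10.68 in CHIR (1.23 ± 0.04). The levels formed a ladder with no overlap anywhere, with means of 12.49 in 2iLIF, 11.95 in 2i, 11.39 in PD03, 10.72 in CHIR and 10.04 in DMSO.

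Gja1 ran the other way. The PD03 arrays read 9.996, 9.81 and 9.85, against 11.54, 11.54 and 11.50 in DMSO, which is 3.12-fold lower (-1.64 ± 0.07). In 2i it was 10.002, 10.04 and 10.09, against 11.19, 11.18 and 11.24 in CHIR (-1.16 ± 0.07). The lowest level was in 2iLIF (9.15, 9.34 and 9.51). The groups were apart, but 2i and PD03 were separated by less than the spread within PD03, with 10.002 on the lowest 2i array and 9.996 on the highest PD03 array.

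**Figure D1:**
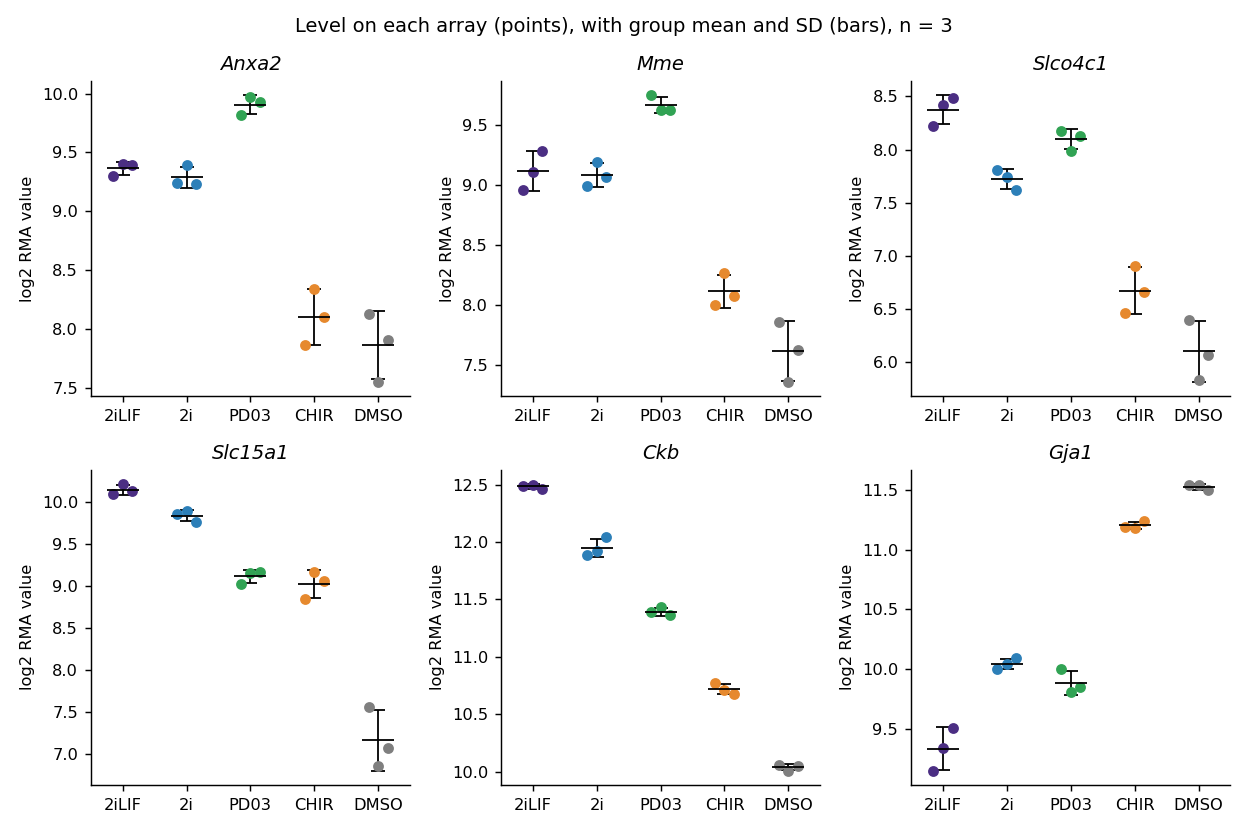
Level of each gene (log2 RMA value, vertical axis, scaled per panel) on the 3 arrays of each group; points are arrays, the horizontal bar is the mean and the whiskers are the SD (n = 3). Anxa2, Mme, Slco4c1 and Ckb are high in the 3 groups with PD0325901 and low in CHIR and DMSO, Slc15a1 is at about the same level in PD03 and CHIR, and Gja1 is low in the groups with PD0325901.

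By size of change, Mme, Anxa2, Slco4c1 and Slc15a1 ranked 3, 4, 5 and 6 from the top of all genes in PD03 minus DMSO. Ckb ranked 25 there and 5 in 2i minus CHIR, and Gja1 ranked 6 from the bottom in PD03 minus DMSO and 13 in 2i minus CHIR. The choice named no threshold and no contrast, and both contrasts with PD0325901 are treated here as used in it. All 6 had a change of at least 2-fold in PD03 minus DMSO, which holds with an adjusted p under 0.05 for 0.381% of genes. Since the genes were chosen from these contrasts, the count shows only how they were picked. Of all genes 16.8% passed at an adjusted p under 0.05 in PD03 minus DMSO (limma), 8.67% higher and 8.15% lower. In 2i minus CHIR 9.46% passed, 5.7% higher and 3.76% lower. The arrays did not overlap between the groups for 31.4% and 26.8% of genes.

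The change with PD0325901 was numerically smaller with CHIR99021 present than without it in all 6 genes. For Anxa2 it was 1.18 with CHIR99021 against 2.05 without, for Mme 0.96 against 2.05, for Slco4c1 1.05 against 1.99 and for Slc15a1 0.81 against 1.95. For Gja1 it was -1.16 against -1.64, and for Ckb 1.23 against 1.36, the closest pair. The difference between these effects was not tested, because both contrasts were treated as used to choose the genes. The same gap can be written from the DMSO level, which restates these values and adds no further observation. Slc15a1 was 2.68 higher in 2i than in DMSO, where the separate effects of the inhibitors sum to 3.81. For Ckb the difference between 2i and DMSO was 1.91 and the sum 2.04. The share of all genes with a smaller change beside CHIR99021 was not counted. Of all genes 9.46% passed in 2i minus CHIR and 16.8% in PD03 minus DMSO. Picking genes for a large change in PD03 minus DMSO itself favours a smaller one in the other contrast.

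**Figure D2:**
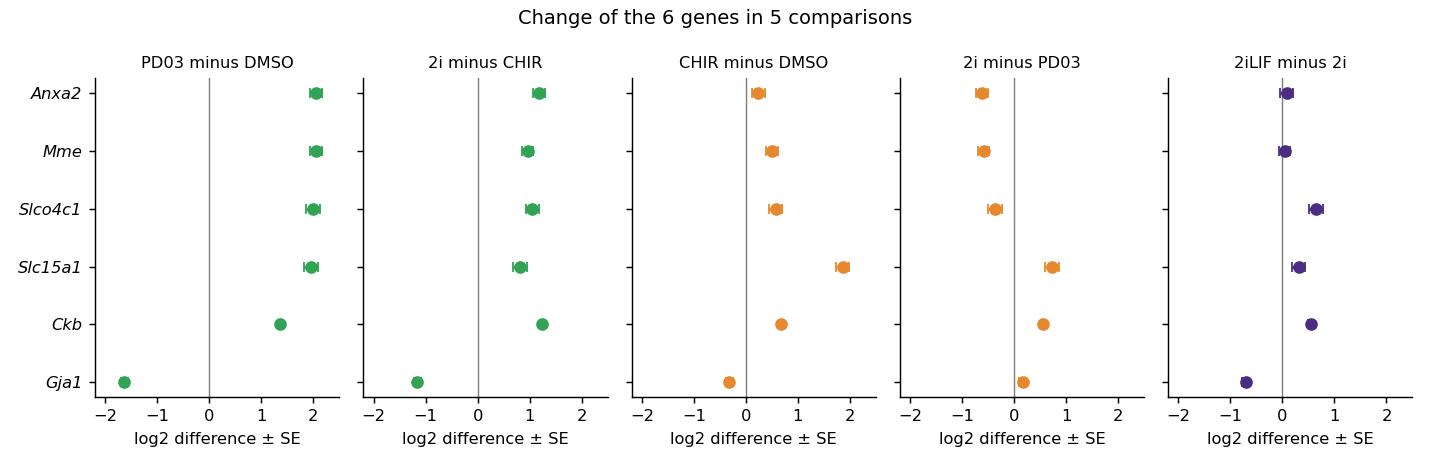
Log2 difference (horizontal axis, bars are SE) of the 6 genes in 5 comparisons, the first-named group minus the second. The first 2 panels hold the contrasts treated as used to choose the genes. In CHIR minus DMSO Slc15a1 is at 1.86, and in 2i minus PD03 Anxa2, Mme and Slco4c1 are below 0.

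The next comparisons were not themselves used to choose the genes, but all arrays of CHIR minus DMSO and of 2i minus PD03, and the 2i arrays of 2iLIF minus 2i, also enter the contrasts that were. Their p-values are therefore not independent of the choice. With CHIR99021 alone, Slc15a1 was 3.64-fold higher than in DMSO (1.86 ± 0.13, limma adjusted p = 3.44e-08) and ranked 13 from the top of all genes. Ckb was 1.60-fold higher (0.68 ± 0.04, adjusted p = 1.1e-08), Slco4c1 higher by 0.57 ± 0.13 (adjusted p = 0.00351) and Mme by 0.50 ± 0.11 (adjusted p = 0.00316). Gja1 was lower by 0.32 on the log2 scale (SE 0.07, adjusted p = 0.00305). Anxa2 did not pass, at 0.24 ± 0.12 (95% confidence interval -0.02 to 0.50, adjusted p = 0.199), and its CHIR and DMSO arrays overlapped. It passed without DMSO replicate 1 (0.37, adjusted p = 0.0384). In all, 5 of the 6 genes passed, beside 20.8% of all genes, and the arrays were apart in 5, beside 31.9% of all genes.

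Keeping CHIR99021 beside PD0325901 divided the genes. Slc15a1 was higher in 2i than in PD03 by 0.73 ± 0.13 (adjusted p = 6.35e-04) and Ckb by 0.56 ± 0.04 (adjusted p = 1.57e-07). Anxa2 was lower in 2i by 1.54-fold (-0.62 ± 0.12, adjusted p = 0.0017) and Mme by 1.5-fold (-0.59 ± 0.11, adjusted p = 0.00101). Slco4c1 was at -0.37 ± 0.13, at the edge of the threshold (adjusted p = 0.0488), a call lost without any 1 of the 2i or PD03 arrays (the highest adjusted p was 0.164, without 2i replicate 3). It was also lost without 2iLIF replicate 2 or 3, CHIR replicate 3 or DMSO replicate 3. Gja1 did not pass, at 0.16 ± 0.07 (95% confidence interval 0.01 to 0.31, adjusted p = 0.132), though it did without 2iLIF replicate 1 (adjusted p = 0.0444). Of the 6 genes 5 passed, beside 19.5% of all genes, and the arrays were apart in all 6, beside 35.8%. Neural progenitor markers were lower in 2i as Anxa2 and Mme were, with sums of 1312 to 1451 in 2i and 1770 to 1865 in PD03. Slc15a1 and Ckb went the other way. In CHIR minus DMSO the neural sums were lower too, at 1151 to 1185 against 1364 to 1414, where Mme, Slco4c1, Slc15a1 and Ckb were higher. The part of these markers in the results was not tested.

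LIF was tested in the presence of both inhibitors. Gja1 was 1.64-fold lower in 2iLIF than in 2i (-0.71 ± 0.07, adjusted p = 3.08e-06) and ranked 50 from the bottom of all genes. Slco4c1 was higher in 2iLIF by 0.65 ± 0.13 (adjusted p = 0.00215) and Ckb by 0.54 ± 0.04 (adjusted p = 3.1e-07), both with arrays apart. Anxa2 and Mme differed by 0.08 ± 0.12 and 0.04 ± 0.11, with 95% confidence intervals of -0.18 to 0.34 and -0.20 to 0.27 (adjusted p = 0.804 and 0.907), so a difference of up to about those bounds could not be seen here. Slc15a1 was at 0.31 ± 0.13 (95% confidence interval 0.04 to 0.58, adjusted p = 0.144) with all 3 2iLIF arrays above all 3 2i arrays. In a fit of the 2iLIF and 2i arrays alone it passed (adjusted p = 0.00519), and also in the fit without DMSO replicate 1 (adjusted p = 0.014). Its SD was 0.06 in 2iLIF and 0.06 in 2i but 0.36 in DMSO, and the test over all groups takes 1 spread from all 15 arrays. Of the 6 genes 3 passed, beside 12.2% of all genes, and the arrays were apart in 4, beside 26.0%. The summed signal of the trophoblast markers moved in the same comparison, at 1890 to 1914 in 2iLIF and 1326 to 1340 in 2i. Eomes and Tfap2c passed as higher, 2 of 8 markers, and the median difference of the 8 was -0.01. The part of these markers in the result was not tested.

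Anxa2, Mme, Slco4c1 and Slc15a1 varied together within the groups that lacked PD0325901. On the DMSO arrays each of the 4 was highest in replicate 1 and lowest in replicate 2, with deviations from the group mean of 0.24 to 0.40 in replicate 1 and -0.31 to -0.26 in replicate 2. On the CHIR arrays each was highest in replicate 2 (0.14 to 0.24 above the mean) and lowest in replicate 1. Of all genes, 13.7% had that order of DMSO arrays and 4.19% had both orders. In 2iLIF, a group with PD0325901, each of the 4 was lowest in replicate 1 (-0.16 to -0.05), as was Gja1 (-0.18). The SD of Mme in DMSO, 0.25, was reached by 0.56% of genes, and the median SD over genes in DMSO was 0.059. Its SD was reached by 3.88% of genes in CHIR (0.14) and by 2.96% in 2iLIF (0.16). Ckb and Gja1 did not share the spread in DMSO, with an SD of 0.03 each there. The summed signal of the 8 ES cell markers was 34730 in DMSO replicate 1, 33919 in replicate 2 and 33941 in replicate 3. That of the trophoblast markers was 1363, 1230 and 1204 on the same arrays, and that of the neural markers was 1364, 1414 and 1387, lowest in replicate 1. On CHIR arrays 1, 2 and 3 the sum of the ES cell markers was 34059, 33723 and 34280, lowest where the 4 genes were highest. That of the trophoblast markers was 1222, 1258 and 1180, highest on that array, and that of the neural markers 1185, 1151 and 1163, lowest on it. The part of these markers in the spread was not tested. Without DMSO replicate 1 the change of Slc15a1 in PD03 minus DMSO was 2.15, and without replicate 2 it was 1.79. The corresponding value for Anxa2 without DMSO replicate 2 was 1.89.

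**Figure D3:**
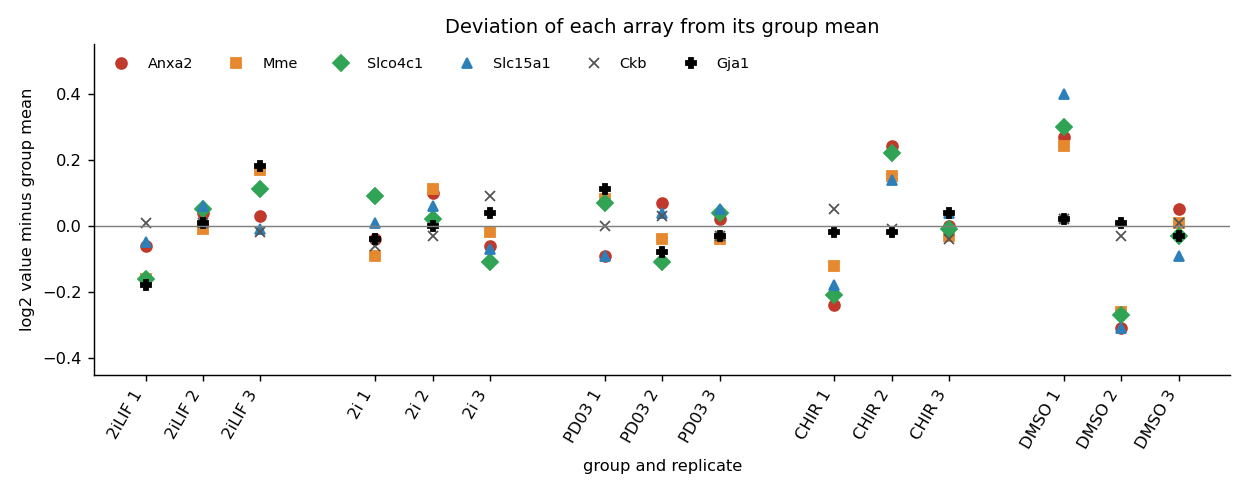
Deviation of each array from the mean of its group (log2, vertical axis) for the 6 genes, with groups and replicates along the horizontal axis. Anxa2, Mme, Slco4c1 and Slc15a1 lie together at 0.24 to 0.40 in DMSO replicate 1 and at -0.31 to -0.26 in DMSO replicate 2, where Ckb and Gja1 lie near 0.

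The relatives of each gene were taken from lists of its family, its partners or genes of like function. The member itself was left out of each count. Among 18 further annexins, S100 proteins and Ahnak, 7 were higher and 0 lower in PD03 than in DMSO, beside 8.67% and 8.15% of all genes, with a median difference of 0.07 against 0.004 over all genes. In 2i minus CHIR 7 were higher and 1 lower, beside 5.7% and 3.76% of all genes. The lower one was Anxa3 (-0.62 ± 0.04, limma adjusted p = 2.09e-07). S100a10, the direct partner of Anxa2, averaged 12.48 ± 0.05 in PD03 and 11.49 ± 0.01 in DMSO (SD, n = 3 each), a difference of 0.99 ± 0.04 (adjusted p = 1.41e-10), and was 0.51 ± 0.04 higher in 2i than in CHIR (adjusted p = 5.93e-07). Ahnak, a very large scaffold protein that binds the complex of Anxa2 and S100a10, rose by 0.95 ± 0.05 in PD03 (adjusted p = 5.15e-09) and by 0.53 ± 0.05 in 2i minus CHIR (adjusted p = 7.17e-06). S100a11 rose by 0.65 ± 0.05 and Anxa6 by 0.56 ± 0.05 in PD03 minus DMSO. The value of Anxa6 in PD03 minus DMSO was 0.30 with the mean of all its probe sets, and that of Anxa6 in 2i minus CHIR was 0.32 in place of 0.51. In 2i minus PD03, S100a10 and Ahnak fell by 0.14 and 0.20 on the log2 scale (adjusted p = 0.0181 and 0.016). With LIF, where Anxa2 did not pass, S100a10 and Ahnak rose by 0.24 ± 0.04 and 0.33 ± 0.05 (adjusted p = 5.54e-04 and 4.43e-04); whether they differ from Anxa2 in this was not tested.

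**Figure D4:**
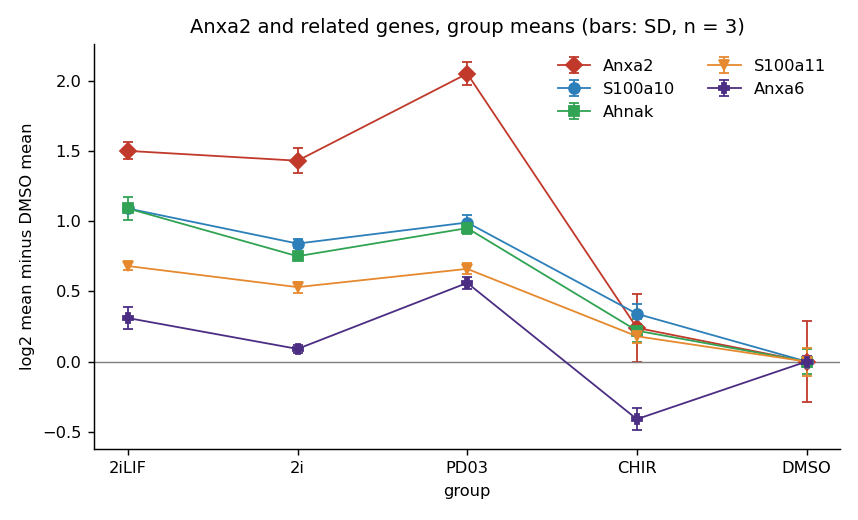
Group means of Anxa2, S100a10, Ahnak, S100a11 and Anxa6, each minus its own DMSO mean (log2, vertical axis), by group (horizontal axis); bars are the SD (n = 3). All 5 genes are above 0 in PD03, from 0.56 for Anxa6 to 2.05 for Anxa2, and Anxa6, shown by its brightest probe set, is below 0 in CHIR.

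Among 11 further membrane peptidases, not all of the family of Mme, 0 were higher and 3 lower in PD03 than in DMSO. The shares of all genes were 8.67% and 8.15%. Dpp4, a dipeptidyl peptidase, fell by 0.77 (SE 0.06, adjusted p = 1.23e-07), Anpep, an aminopeptidase, by 0.54 (SE 0.07, adjusted p = 3.95e-05), and Ece2, an endothelin-converting enzyme, by 0.31 on the log2 scale. In 2i minus CHIR, Anpep and Dpp4 were lower again, at -0.48 ± 0.07 and -0.33 ± 0.06, and 0 were higher, beside 3.76% lower and 5.7% higher among all genes. The list median was 0.00 in PD03 minus DMSO. Phex, Kel, Enpep and Trhde had means under 6 in all groups, in the range of background, where a change would be hard to see.

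Few other members of the transporter families passed with PD0325901. Most of the organic anion transporters beside Slco4c1 had means under 6 in all groups, in the range of background, where a change would be hard to see. Among these 13 genes 1 passed in PD03 minus DMSO (7.69%), beside 16.8% of all genes. It was Slco1b2, with a DMSO mean of 5.12 in the range of background (0.13 ± 0.04, limma adjusted p = 0.0386). That call was lost without any 1 of DMSO replicates 1, 2 and 3 or PD03 replicates 1 and 2. In 2i minus CHIR 0 passed by limma, beside 9.46% of all genes. Of the 4 peptide transporters beside Slc15a1, 0 passed in either comparison by limma, beside 16.8% and 9.46% of all genes. A list of 4 is too short to set against those shares. Slc15a4, a transporter of lysosomes, averaged 8.81 in PD03 and 8.73 in DMSO (0.08 ± 0.05, adjusted p = 0.335), and Slc15a2, a relative of Slc15a1 best known from kidney, 6.31 in PD03 and 6.26 in DMSO (0.04 ± 0.10, adjusted p = 0.833). In 2i minus CHIR Slc15a2 was at 0.27 ± 0.10 (adjusted p = 0.107), and 1 gene of the list passed without 2i replicate 3. Slc15a2 passed in 2iLIF minus 2i (0.36 ± 0.10, adjusted p = 0.0211), a call lost without 2iLIF replicate 3 or 2i replicate 3. Slco5a1 passed in CHIR minus DMSO (0.40 ± 0.06, adjusted p = 2.08e-04).

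In creatine metabolism 2 of 6 further genes were higher and 1 lower in PD03 than in DMSO, beside 8.67% and 8.15% of all genes. Ckmt1, the ubiquitous mitochondrial creatine kinase, rose by 0.37 ± 0.08 (adjusted p = 0.00229) and Slc6a8, the creatine transporter, by 0.21 ± 0.04 (adjusted p = 0.00283). Gatm, which makes the precursor of creatine, fell by 0.43 (SE 0.06, adjusted p = 5.39e-05). With CHIR99021 present 2 were higher and 0 lower, beside 5.7% and 3.76% of all genes: Ckmt1 rose by 0.67 ± 0.08 (adjusted p = 2.38e-05) and Gamt, the enzyme of the last step of creatine synthesis, by 0.30 ± 0.05 (adjusted p = 9.43e-04). Ckmt1 was also 0.88 ± 0.08 higher in 2iLIF than in 2i (adjusted p = 8.85e-07), a comparison in which Ckb rose too. The muscle form Ckm did not pass in either comparison with PD0325901, at 0.01 ± 0.06 and 0.12 ± 0.06 (adjusted p = 0.969 and 0.264).

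Of 18 further connexins and pannexins, 1 was higher and 2 lower in PD03 than in DMSO, a share of 16.7% called, beside 16.8% of all genes. Gja5, Gja6, Gja10, Gjb6, Gjc3, Gjd2, Gjd4, Gje1 and Panx3 had means under 6 in all groups. That is in the range of background, where a change would be hard to see. Gjb5, a connexin of epithelia and trophoblast, moved against Gja1: it averaged 8.46 ± 0.11 in PD03 and 7.60 ± 0.08 in DMSO (0.86 ± 0.06, adjusted p = 3.25e-08), was 0.53 ± 0.06 higher in 2i than in CHIR (adjusted p = 1.51e-05), and rose by 1.12 ± 0.06 in 2iLIF minus 2i (adjusted p = 3.16e-09). The summed signal of the trophoblast markers was also higher in 2iLIF, as given above, though only 2 of the 8 markers passed. The channel gene Panx1 fell by 0.24 in PD03 (SE 0.04, adjusted p = 4.86e-04). Gjb2 was at -0.18 ± 0.06 (adjusted p = 0.0486), lost without any 1 of 11 arrays. Panx1 was at -0.16 ± 0.04 in 2i minus CHIR (adjusted p = 0.024), lost without 2i replicate 1 or 2 and without CHIR replicate 2 or 3, which left 1 gene of the list called in place of 2. Gjc1, another connexin expressed in these cells, averaged 9.54 in PD03 and 9.63 in DMSO (-0.09 ± 0.05, adjusted p = 0.3), and followed CHIR99021 instead, at 0.85 ± 0.05 in CHIR minus DMSO (adjusted p = 1.3e-08). It was chosen after its values were seen.

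Slc15a1 and Mme are classic proteins of the brush border, the apical surface of absorptive epithelia. Membrane peptidases were kept on their own list, given above, where Dpp4 and Anpep were lower with PD0325901. They are not among the genes counted next. Of 15 other apical and brush border genes, 1 was higher and 1 lower in PD03 than in DMSO, a share of 13.3% called, near the 16.8% of all genes. Prom1, a protein of membrane protrusions, rose by 0.28 ± 0.05 (adjusted p = 9.74e-04) and the epithelial adhesion gene Epcam fell by 0.22 (SE 0.04, adjusted p = 4.96e-04). In 2i minus CHIR 4 of the list passed, 26.7% beside 9.46% of all genes. The 2 higher were Prom1 (0.20 ± 0.05, adjusted p = 0.0194) and Cdhr2 (0.13 ± 0.04, adjusted p = 0.031). The 2 lower were Epcam (-0.20 ± 0.04, adjusted p = 0.00258) and Eps8 (-0.15 ± 0.04, adjusted p = 0.0125). That count of 4 was 2 without CHIR replicate 1 or 2 and with a common array median, and the Cdhr2 means, 5.54 in 2i and 5.41 in CHIR, lay in the range of background. The brush border gene Vil1 had means of 6.14 in PD03 and 6.11 in DMSO and did not pass (adjusted p = 0.726). For scale, among 21 ERK response and feedback genes 0 were higher and 14 lower in PD03 than in DMSO, a share of 66.7% called. The lowest of these were Dusp4 at -2.18 ± 0.06, Etv4 at -2.09 ± 0.08 and Spry4 at -2.00 ± 0.09. Their changes in 2i minus CHIR were -1.30 ± 0.06, -1.79 ± 0.08 and -1.64 ± 0.09.

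**Figure D5:**
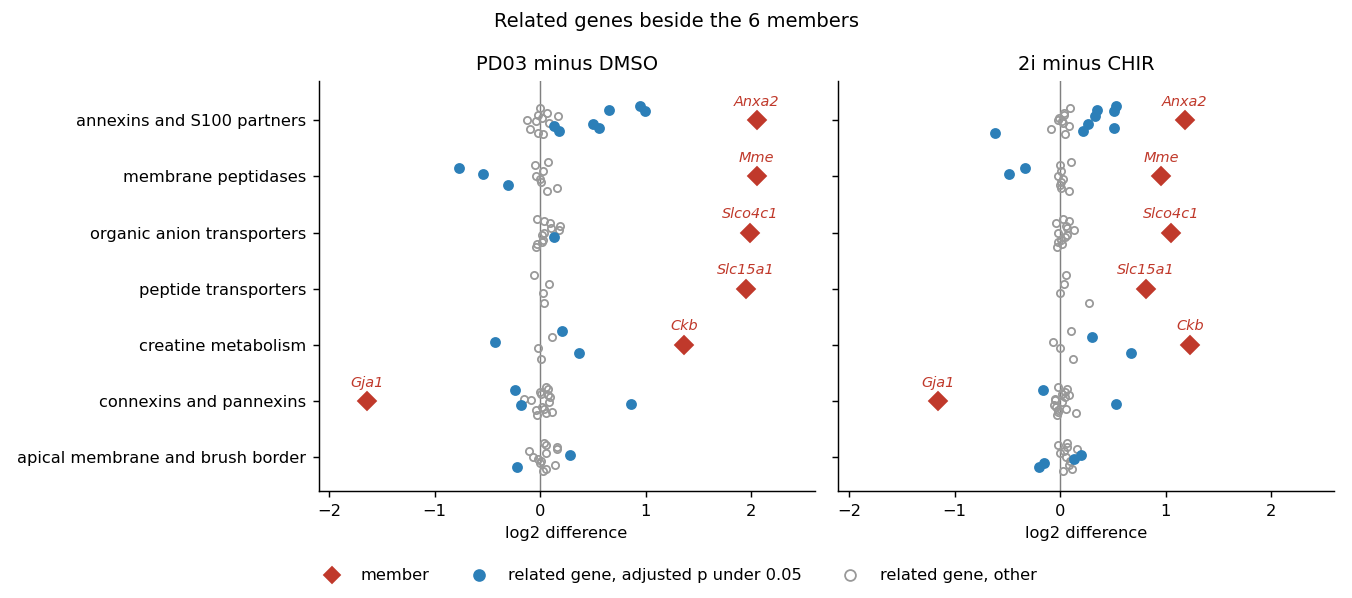
Log2 difference (horizontal axis) of the 6 members (diamonds) and of the other genes on 7 lists, given down the vertical axis (circles; filled where the limma adjusted p is under 0.05) in PD03 minus DMSO and 2i minus CHIR. The members were chosen for a strong change with PD0325901, so their place outside the range of their relatives was set by that choice. Among the relatives, S100a10 at 0.99 and Ahnak at 0.95 have the largest increases in PD03 minus DMSO.

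The genes whose profile over the 15 arrays was most like that of each member were found by Pearson correlation, with symbols of predicted genes left out. This is a description in which all arrays share groups and normalization. For Anxa2 these were Mme, the galectin gene Lgals3 (r = 0.979) and the adhesion molecule Ncam1 (r = 0.977). Lgals3 averaged 8.90 in PD03 and 8.04 in DMSO, and Ncam1 9.65 in PD03 and 7.82 in DMSO. Next to Mme, after Anxa2, stood the sorting nexin Snx10 (r = 0.982) and Mreg (r = 0.978), with PD03 and DMSO means of 9.52 and 8.96 for Snx10. Slco4c1 was most like Ahnak (r = 0.994), then Chmp4c, a subunit of the membrane-cutting ESCRT machinery, and the tetraspanin Cd9 (r = 0.986 each). Slc15a1 was closest to 2 other transporter genes, Slc2a3 of glucose and Slc44a1 of choline (r = 0.993 each). Means of Slc2a3 were 12.97 in PD03, 12.94 in CHIR and 12.54 in DMSO, the near tie of the single inhibitors that Slc15a1 showed.

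Ckb was most like Rasgef1a, an exchange factor gene (r = 0.989), whose means formed the same ladder of 8.62 in 2iLIF, 8.17 in 2i, 7.48 in PD03, 6.73 in CHIR and 6.35 in DMSO. Atp8b2, a phospholipid flippase gene (r = 0.986), and Mavs, an adaptor of antiviral signalling (r = 0.982), followed. Gja1 was most like Cyria (r = 0.983), with means of 8.11 in 2iLIF, 9.04 in 2i, 8.81 in PD03, 9.84 in CHIR and 10.09 in DMSO. Dpy19l3, a glycosyltransferase gene (r = 0.982), and the phosphatase gene Cdc14a (r = 0.979) came after it. Among the 6 genes themselves, Slco4c1 and Gja1 ran most nearly opposite (r = -0.966), and Anxa2 and Slc15a1 had the weakest relation (r = 0.704).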

How the data were processed

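The authors deposited log2 values, 1 per probe set, made with RMA per the submitters' processing notes (RMA version not stated there). Its quantile step hides a change shared by most genes. The 15 arrays had medians of 6.98 to 7.06 over 34760 probe sets, and 0 columns were unused. Of the 21640 probe sets with exactly 1 gene symbol, the one with the highest mean stood for a gene, which left 19937 genes. Groups came from the sample titles, and separate cultures are not stated for replicates, whose spread may be technical. A model of 5 groups was fitted with limma 3.58.1 in R 4.3.3 and checked on simulated data. Its tests were two-sided, with Benjamini-Hochberg adjustment over all genes at 0.05, and every adjusted p comes from it. The number of arrays limits precision.

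Members and gene lists were chosen with earlier results of these data known. Named genes were the members and 4 check genes. From each list came up to 4 called genes with the largest change in PD03 minus DMSO, and the same in 2i minus CHIR. The 3 genes most correlated with each member were also named, with symbols of predicted genes left out. Some genes of this rule are not reported here, and Vil1, Ckm, Slc15a2, Slc15a4, Slco5a1 and Gjc1 were named after their values were seen. Promoter sequences are RefSeq's, for GRCm38.p6. Alternatives were other probe set rules, a minimum mean of 6, a trended and robust prior, the compared groups alone, a common array median, a replicate block and leaving out each array.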

Additional observations from a re-analysis of the deposited data

Results flagged for a closer look

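In 3 genes the arrays of the compared groups lay apart in one direction for CHIR99021 beside PD0325901 and in the other for CHIR99021 alone. The arrays were apart for 35.8% of all genes in 2i minus PD03 and for 31.9% in CHIR minus DMSO. The share of all genes apart in opposite directions was not counted. Mme was at -0.59 in 2i minus PD03 and at 0.50 in CHIR minus DMSO. Slco4c1 was at -0.37 in 2i minus PD03, at the edge of the threshold, and at 0.57 in CHIR minus DMSO. Gja1 was at 0.16 in 2i minus PD03, which did not pass (limma adjusted p = 0.132) and where the closest arrays read 10.002 in 2i and 9.996 in PD03, and at -0.32 in CHIR minus DMSO. The difference between the effects was not tested, because the genes were chosen on contrasts that enter it. Choosing genes for a large difference between PD03 and DMSO itself favours such opposite directions.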

How the results depend on the processing

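Each of the 5 counts of genes past the threshold stayed within 1.5 times its main value in every alternative run. Leaving out 1 array gave 2631 to 3454 genes for PD03 minus DMSO and 1387 to 2001 for 2i minus CHIR. Slco4c1 in 2i minus PD03 no longer passed over all probe sets (-0.37, adjusted p = 0.11), where more features were tested, and ranged from -0.43 to -0.32 with 1 array left out. Slc15a1 in 2iLIF minus 2i passed with the arrays of these groups alone (0.31, adjusted p = 0.00519), and ranged from 0.28 to 0.34 with 1 array left out. Among the 6 members, the other leave-one-out ranges that changed a call, a direction or a value were 1.89 to 2.18 for Anxa2 and 1.79 to 2.15 for Slc15a1 in PD03 minus DMSO, 0.09 to 0.37 for Anxa2 in CHIR minus DMSO, 0.12 to 0.21 for Gja1 in 2i minus PD03, and -0.05 to 0.11 for Mme in 2iLIF minus 2i. Mme turned to -0.05 without 2iLIF replicate 3 and to -0.01 without 2i replicate 1. Named list genes that lost a call when 1 array was left out were Gjb2 (-0.23 to -0.11) and Slco1b2 (0.11 to 0.18) in PD03 minus DMSO, and Panx1 (-0.17 to -0.14), Prom1 (0.16 to 0.23), Cdhr2 (0.11 to 0.15) and Eps8 (-0.17 to -0.13) in 2i minus CHIR. Of 880 recomputed list counts, 34 moved by over 1.5 times. A count of 0 was taken as 1 in this, so changes between 0 and 1 are not among the 34. The organic anion transporters in PD03 minus DMSO, at 0 to 1 with 1 array left out, had such changes. Where a cause is not named, the cause was not tested.

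Replicate numbers did not pair the arrays: in PD03 minus DMSO same-numbered arrays had correlations of deviations from -0.0952 to 0.339 and in 2i minus PD03 from -0.231 to -0.139, although in 2i minus CHIR they were from 0.0625 to 0.234, and 4 of 15 arrays correlated best with their own number. With the replicate block, the count of genes past the threshold in PD03 minus DMSO was 3229 in place of 3354, and Slco4c1 in 2i minus PD03 was at -0.37 with an adjusted p of 0.0734. Slco1b2, Cdhr2 and the DMSO level of Slco4c1 lay in or near the range of background.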
